A study of Sus scrofa domesticus with 16 samples.

Results

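The signal of the genes that bring cholesterol into the mitochondrion and cut off its side chain was measured in the pig adrenal gland. The genes were STAR, TSPO, CYP11A1, FDX1 and FDXR, and every probe set that the array's annotation assigns to them was taken, which gave 9 of the 23999 probe sets besides controls, for 5 of the 6765 genes named on the array. A probe set is a group of short oligonucleotides that are read together as 1 signal. Each was identified by its symbol and by the platform's own identifier, and 9 of 9 matched the reference gene table by gene number. STAR had 2 probe sets (Ssc.279.1.S1_at and Ssc.279.1.S2_at, here S1 and S2), and FDX1 had 2 (Ssc.231.1.S1_at and Ssc.231.1.S2_at, here S1 and S2). FDXR had 3 (Ssc.16934.1.S1_at, Ssc.16934.2.S1_at and Ssc.16934.3.S1_a_at, here FDXR 1, FDXR 2 and FDXR 3), CYP11A1 had 1 (Ssc.8776.1.S1_at) and TSPO had 1 (Ssc.5936.1.A1_a_at). The 2 STAR probe sets were designed on the same mRNA record, as were the 2 FDX1 probe sets, so they are repeated readings of 1 transcript. The 3 FDXR probe sets came from 3 different records.

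Steroid hormones are made from cholesterol, and the first committed step takes place on the inner mitochondrial membrane. STAR, the steroidogenic acute regulatory protein, moves cholesterol from the outer to the inner membrane and limits the rate of the acute response to ACTH. TSPO, an outer membrane protein, binds cholesterol and has long been discussed as an import partner. CYP11A1, the side-chain cleavage enzyme, converts cholesterol to pregnenolone with electrons that ferredoxin reductase (FDXR) takes from NADPH and that ferredoxin (FDX1) carries to the enzyme.

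Total RNA of adrenal glands from 16 domestic pigs was hybridised to the porcine genome array, 1 array per animal. Unfamiliar pigs had been mixed, and 8 animals from a mixing treatment with high aggressiveness are labelled high stress and 8 from one with low aggressiveness are labelled low stress. The submitters selected both groups for a difference in aggression and in cortisol in the blood. The labels give neither age nor breed, name no allele or drug, and show only that the samples were separate animals. The log2 signal of a Y-linked gene ran from -0.86 to 10.28 in high stress and from -0.040 to 10.60 in low stress animals. It served as a covariate in an alternative, and sex was not assigned from it. The tissue is bulk, so fewer cells of a type and less RNA per cell cannot be told apart.

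The arrays fell into 2 sets that the labels do not mention, seen in the dap control, a bacterial RNA spiked in before labelling. Its mean signal was 432 on 8 arrays, called low-dap here, and 3506 on the other 8, called high-dap. Of each stress group, 4 animals were in each set. The low-dap arrays were those of low stress animals 2, 4, 5 and 7 and high stress animals 1, 4, 6 and 8. Correlations between arrays lay between 0.900 and 0.972, and precision is limited by how many arrays there are. The actin control's 3' signal over its 5' signal, a ratio that rises as RNA gets shorter, averaged 14.01 on low-dap and 6.87 on high-dap arrays. Of 14399 probe sets bright enough to test, limma called 40.1% between high-dap and low-dap arrays (adjusted p threshold 0.05). The medulla was part of the samples: of 20 listed chromaffin cell markers 11 were on the array and 10 were tested, and their mean log2 signal lay between 10.79 and 11.78 in high stress animals and between 10.98 and 11.79 in low stress animals.

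No probe set of the 5 genes passed the test between stress groups. With limma and an adjusted p threshold of 0.05, 0 of 9 were called, as were 0% of all probe sets tested. At an unadjusted p under 0.05 the count was 0 of 9, against 3.19% of all probe sets. Values of high and low stress animals overlapped for all 9, whereas the groups did not overlap in 0.0208% of the probe sets tested. The differences, high minus low stress, ran from -0.12 for FDX1 S2 to 0.18 for FDXR 3 on the log2 scale. With the set of arrays as a block the adjusted count was again 0 of 9, against 0.00694% of all probe sets, and the unadjusted count 0 of 9 against 6.38%.

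**Figure D1:**
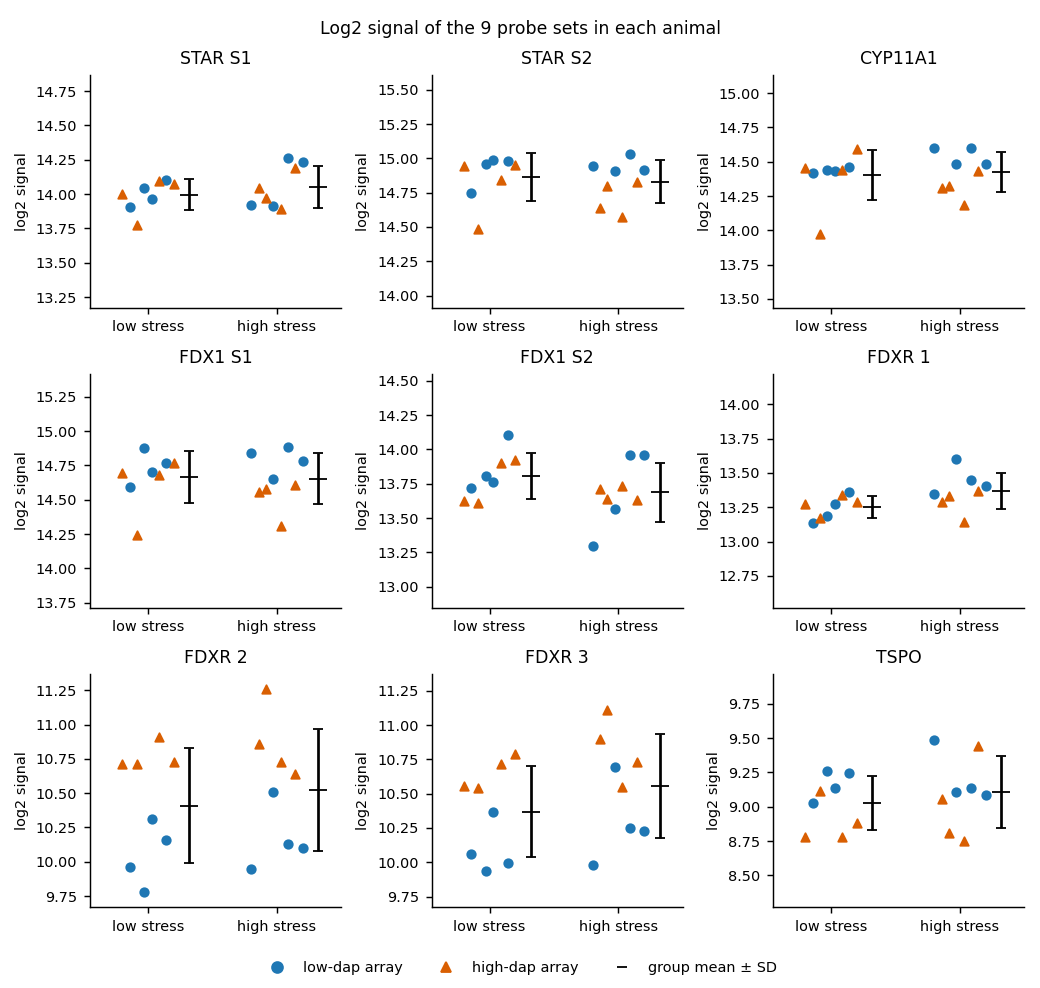
Log2 signal (vertical axis, each panel 1.7 log2 units tall) of the 9 probe sets in the 8 low stress and 8 high stress animals, with circles for low-dap and triangles for high-dap arrays and bars for the group mean ± SD. The stress groups overlapped in every panel, while FDXR 2 separated by array set, with low-dap arrays at 9.78 to 10.51 and high-dap arrays at 10.64 to 11.26.

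STAR, the cholesterol carrier, had nearly the same signal in both stress groups and varied little from animal to animal. The log2 signal of STAR S2 was 14.58 in the lowest high stress animal, 14.87 at the median and 15.03 in the highest. In low stress it was 14.49 in the lowest animal, 14.95 at the median and 14.99 in the highest. The groups covered nearly the same range, with low stress animal 3 lowest of all and high stress animal 6 highest. The means were 14.83 ± 0.16 and 14.86 ± 0.17 (SD, n = 8 each), a difference of -0.033 (95% confidence interval -0.24 to 0.17), or 0.978-fold (0.847 to 1.13). The adjusted p was 0.999 with limma and the exact permutation p, two-sided over 12870 splits, was 0.703. The direction turned under another scaling, to 0.022 with quantile normalization and 0.040 with each array centred on its median.

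STAR S1, which reads the same transcript with other oligonucleotides, did not pass either. Its log2 signal ran from 13.89 through a median of 14.01 to 14.27 in high stress, and from 13.78 through 14.02 to 14.10 in low stress. High stress animals 6, 7 and 8 lay above all low stress animals, and low stress animal 3 lay below all high stress animals. The difference was 0.058 (95% confidence interval -0.13 to 0.24), or 1.04-fold (0.915 to 1.18), with an exact permutation p of 0.400. Over all animals the highest signal was 1.41 times the lowest for STAR S1 and 1.46 times for STAR S2.

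TSPO, the outer membrane protein, spread more widely than STAR and did not pass the test. High stress animals ran from 8.75 through a median of 9.10 to 9.49 on the log2 scale, and low stress animals from 8.78 through 9.07 to 9.26. High stress animals 1 and 7, at 9.49 and 9.44, were above all low stress animals, and high stress animal 5 was the lowest of the 16. The difference of 0.081 (95% confidence interval -0.18 to 0.34), or 1.06-fold (0.885 to 1.26), had an adjusted p of 0.999 with limma and an exact permutation p of 0.485.

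CYP11A1, the enzyme that makes pregnenolone, did not differ detectably between the groups. Its log2 signal was 14.18 in the lowest high stress animal, 14.46 at the median and 14.60 in the highest, and 13.97, 14.44 and 14.59 in low stress. The high stress animals lay inside the low stress range except animals 1 and 6, both at 14.60. Low stress animal 3, at 13.97, stood below all others. The means were 14.43 ± 0.15 and 14.40 ± 0.18 (SD, n = 8 each), a difference of 0.025 with a 95% confidence interval of -0.18 to 0.23, or 1.02-fold (0.881 to 1.17). The adjusted p was 0.999 with limma and the exact permutation p was 0.787. Without low stress animal 3 the difference was -0.036. It was 0.10 within the low-dap and -0.052 within the high-dap arrays.

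Of the electron carriers, FDX1 had an even signal in the 2 groups by its brighter probe set. FDX1 S1 ran from 14.31 through 14.63 to 14.89 in high stress and from 14.24 through 14.70 to 14.87 in low stress, and its lowest animal was again low stress animal 3. The difference was -0.013 (95% confidence interval -0.24 to 0.21), with an exact permutation p of 0.884, and its sign turned under quantile normalization (0.015) and median centring (0.060). FDX1 S2 ran from 13.29 through 13.68 to 13.96 in high stress and from 13.61 through 13.79 to 14.10 in low stress. High stress animals 1 and 4, at 13.29 and 13.56, were below all low stress animals, and low stress animal 7, at 14.10, was the highest. The difference of -0.12 (95% confidence interval -0.35 to 0.11) was within the spread of the animals, with an exact permutation p of 0.241. The readings of FDX1 disagreed most in high stress animal 1, where S1 was 14.84, the third highest of 16, and S2 was the lowest.

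FDXR, the reductase, had the largest upward values of the 5 genes, none of which passed the test. FDXR 1, its brightest probe set, ran from 13.14 through a median of 13.36 to 13.60 in high stress and from 13.14 through 13.27 to 13.36 in low stress. Of the high stress animals, 7 of 8 lay above the low stress mean and 4 above all low stress animals, while animal 5 lay among the lowest low stress animals. The means were 13.37 and 13.25, a difference of 0.11 (95% confidence interval -0.058 to 0.28), or 1.08-fold (0.960 to 1.22). The exact permutation p was 0.0531 over all splits and 0.0518 over the 4900 splits within the array sets, and the adjusted p was 0.999 with limma. FDXR 1 differed by 0.21 within the low-dap and by 0.016 within the high-dap arrays, and that gap did not pass (log2 -0.20, adjusted p = 0.9996 with limma for the interaction). The interaction was called for 0 of 9, as for 0% of all probe sets.

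The other readings of FDXR spread more widely between animals. FDXR 2 ran from 9.94 through 10.57 to 11.26 in high stress and from 9.78 through 10.51 to 10.91 in low stress. FDXR 3 ran from 9.98 through 10.62 to 11.11 and from 9.94 through 10.46 to 10.79. High stress animal 3 was the highest for both, and low stress animal 4 the lowest. FDXR 2 differed by 0.11 (95% confidence interval -0.32 to 0.54) with an exact permutation p of 0.603, or 0.311 over splits within the array sets. FDXR 3 differed by 0.18 (-0.18 to 0.55) with exact permutation p of 0.314 and 0.113. All 3 FDXR readings had a higher mean in high stress, within the spread of the animals, and FDXR 2 turned to -0.030 with the actin ratio as a covariate.

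**Figure D2:**
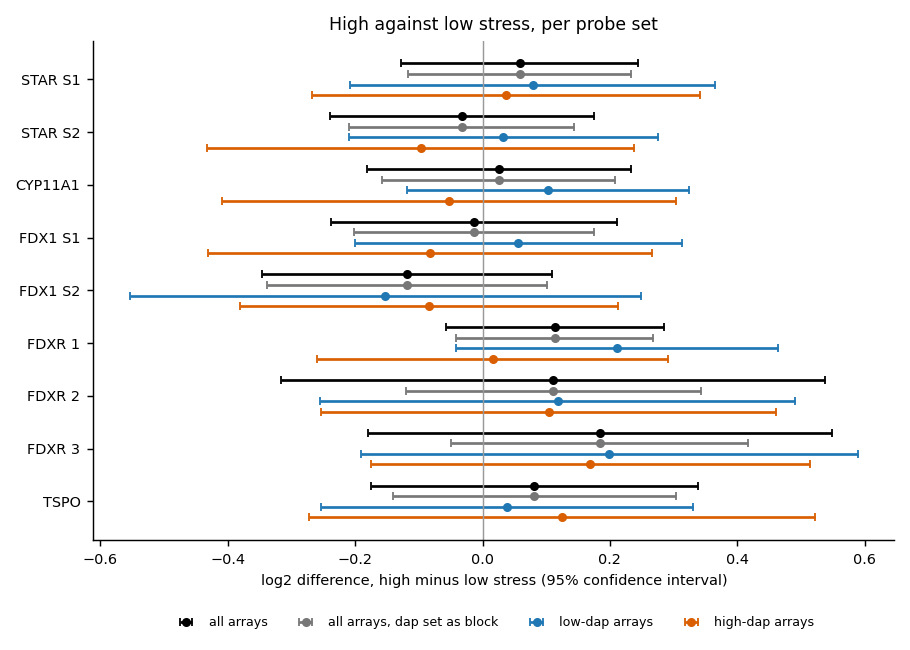
Difference in log2 signal, high minus low stress (horizontal axis), for each of the 9 probe sets with its 95% confidence interval, over all arrays, with the array set fitted as a block, and within low-dap or high-dap arrays alone. Every interval includes 0, and the intervals of FDXR 2 and FDXR 3 are narrower with the block than without it.

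Of the FDXR probe sets, FDXR 2 and FDXR 3 differed between the array sets and FDXR 1 did not pass. FDXR 2 was 9.78 to 10.51 on low-dap and 10.64 to 11.26 on high-dap arrays, with no overlap (6.72% of all probe sets did not overlap), a difference of 0.71 on the log2 scale (adjusted p = 0.000168 with limma). FDXR 3 was higher by 0.55 on high-dap arrays (adjusted p = 0.00113 with limma). FDXR 1 differed by -0.068 (adjusted p = 0.484 with limma), so the readings of this gene changed unequally between the sets. These 2 calls among 9 stand beside 40.1% of all probe sets. The 3' to 5' actin ratio differed between the sets as given above. Within low-dap and high-dap arrays its log2 value correlated with FDXR 2 at r = -0.69 and -0.41 and with FDXR 3 at -0.66 and -0.41, none of which passed (adjusted 0.399 to 0.807, exact permutation). Its part in the difference between the sets was not tested. TSPO was lower on high-dap arrays by -0.23 (adjusted p = 0.0856 with limma), and by -0.34 (adjusted p = 0.0241 with limma) after quantile normalization. The other probe sets differed by -0.21 to -0.040 without passing the test, and after quantile normalization these differences, and that of FDXR 1, turned positive. STAR S1 then passed, at 0.21 (adjusted p = 0.027 with limma).

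The 5 genes varied less between animals than most transcripts, as far as their brightest probe sets show. Within array sets the SD of log2 signal was 0.14 for STAR S1, STAR S2 and CYP11A1, 0.15 for FDX1 S1 and 0.12 for FDXR 1. For TSPO, by its only probe set, it was 0.20. The median over all probe sets tested was 0.27. The median over the 240 brightest other probe sets was lower than that, at 0.14. FDXR 1 had a larger SD than 20% of those 240, STAR S2 than 42.9%, CYP11A1 than 54.2% and FDX1 S1 than 61.7%. The SD of the other readings was 0.20 for FDX1 S2, 0.21 for FDXR 2 and 0.23 for FDXR 3. FDX1 S2, at a mean log2 signal of 13.75, lay in the range of the 240, whose lowest was 13.53. Its SD was larger than that of 89.2% of them.

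On high-dap arrays, STAR S2, CYP11A1 and FDX1 S1 moved together, with the deposited scaling. After quantile normalization none of their pairs passed, with r of 0.073 for STAR S2 and CYP11A1, 0.34 for STAR S2 and FDX1 S1 and 0.81 for CYP11A1 and FDX1 S1. The pairs did not pass on low-dap arrays either. Pairs of probe sets were correlated within each array set, 72 correlations in all, with exact permutation tests and Benjamini-Hochberg adjustment over the 72. The 4 that passed were all positive. On high-dap arrays (n = 8) Pearson's r was 0.94 between STAR S2 and CYP11A1, 0.94 between STAR S2 and FDX1 S1 and 0.96 between CYP11A1 and FDX1 S1. Spearman's rho was 1.0 for each pair. The exact permutation p was 2.48e-05 for each (adjusted 0.000595), the smallest that 8 arrays can give, and 4.96e-05 for rho (adjusted 0.00119). Without the 2 arrays farthest from the median, r was 0.83, 0.86 and 0.95. On low-dap arrays the same pairs had r of 0.48, 0.75 and 0.62, with exact permutation p of 0.243, 0.0203 and 0.104 (adjusted 0.625, 0.168 and 0.418). Without the 2 farthest arrays they had r of -0.36, 0.18 and 0.27. Leaving out the farthest arrays narrows the range of signal, which by itself can lower r, so these values cannot show what the low-dap r rested on. Whether r differed between the array sets was not tested.

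**Figure D3:**
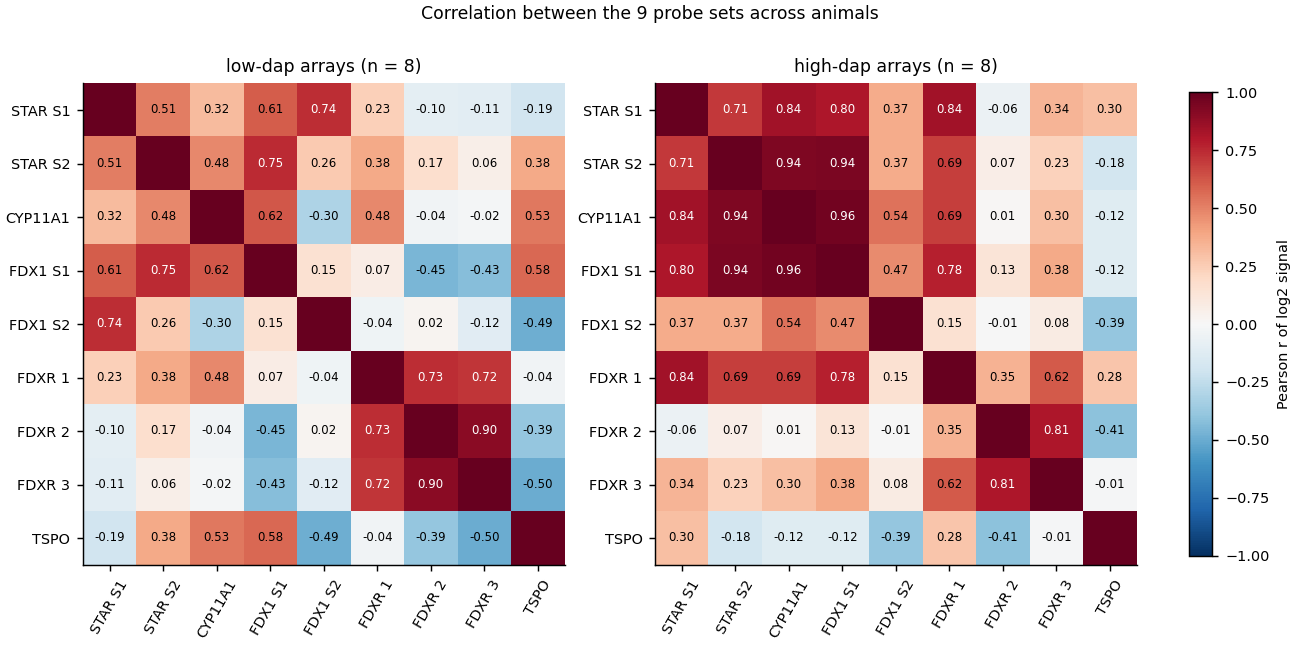
Pearson correlation of log2 signal between the 9 probe sets across animals, on the 8 low-dap arrays (left) and the 8 high-dap arrays (right), with colour from -1 (blue) to 1 (red). On high-dap arrays STAR S2, CYP11A1 and FDX1 S1 form a block with r of 0.94 to 0.96, and FDXR 2 and FDXR 3 pair in both panels (0.90 and 0.81).

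By these readings the same animals were low for all 3 genes. Low stress animal 3 and high stress animal 5 gave the lowest and the next lowest signal of STAR S2, CYP11A1 and FDX1 S1, at 14.49 and 14.58, 13.97 and 14.18, and 14.24 and 14.31. Both are high-dap arrays, 1 from each stress group. FDX1 S2 did not follow: its lowest animal was high stress animal 1, at 13.29, and high stress animal 5 lay at 13.73, near the median of 13.72. Over the 16 arrays the SD of the log2 level was 0.16 for STAR S2, 0.16 for CYP11A1 and 0.18 for FDX1 S1. The log2 signal of STAR S2 minus that of CYP11A1 had an SD of 0.073, and FDX1 S1 minus CYP11A1 also 0.073. Between stress groups these log2 ratios differed by -0.058 and -0.039. Other readings were less tight: STAR S1 minus CYP11A1 had an SD of 0.13, as did STAR S1 alone. FDXR 1 minus CYP11A1 had 0.14, and FDXR 1 alone 0.12.

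The bright end of the array as a whole moved with these genes. The mean log2 signal of the 240 brightest other probe sets was 14.34 ± 0.076 on low-dap and 14.08 ± 0.12 on high-dap arrays (SD, n = 8 each), and was lowest in low stress animal 3, at 13.88, and next lowest in high stress animal 5, at 13.999. On high-dap arrays it correlated with STAR S2 at r = 0.90, with CYP11A1 at 0.96 and with FDX1 S1 at 0.89, with exact permutation p of 0.00223, 0.000273 and 0.000645. Adjusted over 90 correlations of members with array measures, these were 0.0402, 0.0123 and 0.0193. On low-dap arrays r was 0.90, 0.51 and 0.82, and none passed. With the set means subtracted, the 3 pairs had r of 0.86, 0.90 and 0.89 over 16 arrays, and 0.41, 0.54 and 0.57 once the bright mean was removed as well. After quantile normalization, which gives every array the same distribution of signal, none of the 72 correlations passed. Between stress groups the bright mean was level, at 14.21 in both (exact permutation p = 0.994).

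**Figure D4:**
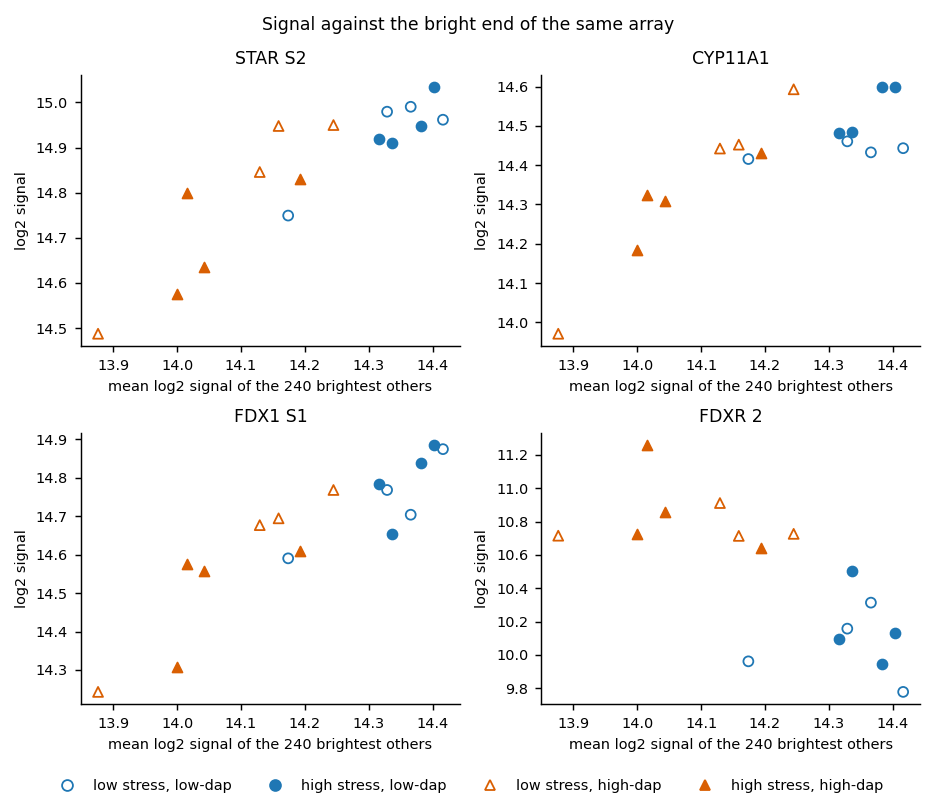
Log2 signal of STAR S2, CYP11A1, FDX1 S1 and FDXR 2 (vertical axes) against the mean log2 signal of the 240 brightest other probe sets of the same array (horizontal axis), with circles for low-dap and triangles for high-dap arrays, filled for high stress and open for low stress. The first 3 rise with the bright mean on high-dap arrays (r = 0.90, 0.96 and 0.89), while FDXR 2 does not (r = -0.24).

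Correlation between readings of 1 gene ranged widely. FDXR 2 and FDXR 3 had r of 0.90 on low-dap arrays (exact permutation p = 0.00164, adjusted 0.0295, with an adjusted p of 0.193 for Spearman's rho) and 0.81 on high-dap arrays (adjusted 0.168, exact permutation). STAR S1 and S2 had r of 0.51 and 0.71, and FDX1 S1 and S2 had 0.15 and 0.47. FDXR 1 correlated with FDXR 2 at 0.73 and 0.35 and with FDXR 3 at 0.72 and 0.62. The median r was 0.66 between probe sets of the same gene and 0.20 between probe sets of different genes. 

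Cell type markers moved with FDXR 2 and TSPO on 1 array set. FDXR 2 was lower where the mean of the chromaffin markers was higher, on high-dap arrays (r = -0.91, rho = -0.95, exact permutation p = 9.92e-05, adjusted 0.00893), with r = -0.76 without the 2 farthest arrays and r = -0.89 after quantile normalization. On low-dap arrays r was -0.17. FDXR 3 gave -0.74 (adjusted 0.305, exact permutation) and -0.19, in that order. FDXR 1, the brightest reading of the gene, gave -0.21 and -0.13 (adjusted 0.959 and 0.972, exact permutation). TSPO, which macrophages also express, was lower where the mean of 8 tested of 13 listed myeloid markers was higher, on high-dap arrays (r = -0.87, rho = -0.88, exact permutation p = 0.00129, adjusted 0.029), with r = -0.89 without the 2 farthest arrays and r = -0.14 on low-dap arrays. Between stress groups the chromaffin mean was 11.29 ± 0.34 and 11.34 ± 0.26 (SD, n = 8 each; exact permutation p = 0.739), and the myeloid mean 9.18 and 9.25, with ranges of 8.70 to 9.60 and 8.93 to 9.80 (exact permutation p = 0.663). These were 2 of 5 correlations with array measures that passed, and the other 3 were those with the bright mean. The part of these cell types in the FDXR 2 and TSPO values was not tested.

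Among probe sets with 1 gene symbol, those most like STAR S2 across the 16 arrays, with set means subtracted, were those of B2M (r = 0.93), ENPP2 (0.92), RPS20 (0.92), RPL27A (0.92) and EF1ALPHA (0.91). Those most like CYP11A1 were BLOC1S1 (0.95), FTL (0.92), WDR46 (0.91), GAPDH (0.90) and RPL27A (0.90). Ribosomal proteins, an elongation factor, a ferritin chain and a glycolytic enzyme are among them, and none is a steroid enzyme. BLOC1S1 and WDR46 were much dimmer than CYP11A1, with mean log2 signals of 8.48 and 7.92. Their ranges of signal had a median r with CYP11A1 of -0.032 and -0.043. The median r with STAR S2 was 0.043 over all 7270 other probe sets with 1 symbol, 0.73 over the 240 brightest others and 0.81 over the 152 with a mean log2 signal of 14 to 15. For CYP11A1 the medians were 0.069, 0.69 and 0.77. These r describe arrays that share their scaling and carry no test.

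**Figure D5:**
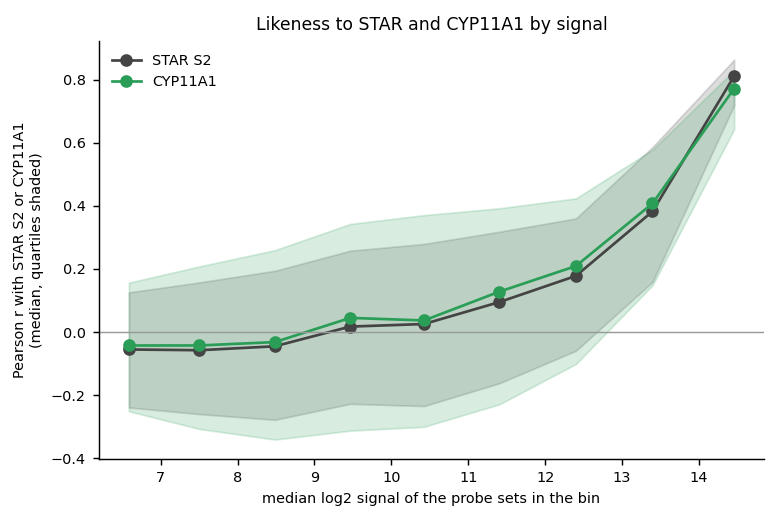
Median Pearson r with STAR S2 (grey) and CYP11A1 (green) over 16 arrays (vertical axis, shading between the quartiles) for probe sets binned by mean log2 signal (horizontal axis, median of the bin). The median stays at or below 0.21 up to a log2 signal of 13 and reaches 0.81 and 0.77 in the brightest bin.

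The list of later steroid synthesis holds enzymes that act after side-chain cleavage, and electron partners such as CYB5A and POR. No CYP21 or CYP11B gene was among the 13 tested. Over these 13 genes the median r was 0.057 with STAR S2 and 0.12 with CYP11A1. Of these genes 12 had a mean log2 signal under 14, where the median r of all probe sets in a range of signal was lower too, so these medians are not set against those of the bright probe sets. HSD3B1, which turns pregnenolone into progesterone, had a mean log2 signal of 14.55 and r of 0.78 and 0.51, against medians of 0.81 and 0.77 for its range of signal. CYP17A1, the 17-hydroxylase, had a mean log2 signal of 12.83 and r of 0.55 and 0.62. Both were above the medians of 0.18 and 0.21 and the upper quartiles of 0.36 and 0.42 for its range of signal. Over 13 genes of mitochondrial import and protein turnover, which process the STAR precursor, the medians were 0.45 and 0.44. Those genes had mean log2 signals of 7.64 to 14.82, so their medians have no single range of signal beside them. Among regulators, NR5A1, the factor that drives most steroid enzyme genes, had r of 0.17 and 0.20. The medians for its range of signal were 0.017 and 0.045. Over the 17 regulators tested the medians were 0.11 and 0.20. CEBPB, an activator of STAR, had 0.57 and 0.75, the highest of the 17, against medians of 0.38 and 0.41 for its range. NR2F2, a repressor found in capsule and stromal cells, had -0.48 and -0.62, the lowest of the 17, in the same range of signal as NR5A1. These are the ends of the list, and whether activators and repressors differ in r was not tested. HSD3B1, CYP17A1, NR5A1 and CEBPB were chosen after their values were seen.

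The genes around the 5 were described with 1 probe set per gene, the brightest. Of 5455 genes, 2739 were higher and 2716 lower in high stress, with a median difference of 0.00062 on the log2 scale, and 3.01% had an unadjusted p under 0.05. At the adjusted threshold with limma 0% passed, in any list or overall. Among the 5 genes themselves 3 were higher and 2 lower, with a median of 0.025.

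Of later steroid synthesis, 13 of 29 listed genes were tested, 7 higher and 6 lower, with a median of 0.067 and 0 at an unadjusted p under 0.05 in either direction. CYB5B, a cytochrome b5 of the outer mitochondrial membrane, had a log2 difference of 0.31 (SE 0.17), HSD11B2, which turns cortisol into cortisone, -0.50 (SE 0.30), and HSD17B12, a dehydrogenase, 0.14 (SE 0.091). Of STAR-related proteins and membrane partners, 16 of 30 were tested, 12 higher and 4 lower, with a median of 0.047 and 0 at an unadjusted p under 0.05. The adenine nucleotide carriers SLC25A4 and SLC25A5 had 0.14 and 0.18 and VDAC1, the outer membrane channel, 0.10.

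Of the ferredoxin chain and iron-sulphur assembly, which builds the cluster that FDX1 carries, 8 of 19 were tested, 2 higher and 6 lower, with a median of -0.017 and 0 at an unadjusted p under 0.05. GLRX5, a glutaredoxin of cluster transfer, had -0.17, SLC25A37, the iron importer, 0.11 and BOLA3, another assembly factor, 0.087. Of mitochondrial NADPH supply, which feeds FDXR, 8 of 11 were tested, 4 higher and 4 lower, with a median of 0.058 and 1 at an unadjusted p under 0.05. That gene was SLC25A11, the oxoglutarate carrier, at 0.40 (SE 0.18, unadjusted p = 0.0395 and adjusted p = 0.999 with limma). MTHFD2, a folate enzyme, had 0.25 and SLC25A1, the citrate carrier, 0.14.

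Of import and turnover, 13 of 20 were tested, 8 higher and 5 lower, with a median of 0.023 and 0 at an unadjusted p under 0.05. TOMM20 and TOMM22, receptors of the outer membrane translocase, had 0.16 and 0.13, and HSPA9, the matrix chaperone, 0.11. Of regulators of steroidogenic genes, 17 of 34 were tested, 7 higher and 10 lower, with a median of -0.043 and 0 at an unadjusted p under 0.05. NR2F2 had -0.18, SREBF2, the activator of sterol genes, 0.16 and SREBF1 -0.17.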

How the data were processed

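The deposited values are linear MAS5 intensity values, 1 column per animal, which the authors made in Expression Console of Affymetrix (version 1.1.1, per the submitters' processing notes; MAS5 version not given in the sources used here). Each column had been scaled to a trimmed mean near 500, which fixes an array's mean and not its distribution. Intensities were taken to log2. After 124 controls were set aside, 14399 of 23999 probe sets at or above the 40th percentile of mean log2 signal (6.15, a signal of 71.1) were tested, all 9 members among them. The stress groups and array sets were compared by limma (version 3.58.1, R 4.3.3; two-sided, Benjamini-Hochberg over all probe sets tested, threshold 0.05) and with exact permutation tests (SciPy 1.17.1, Python 3.11.15; figures with matplotlib 3.10.9). The fits were checked on simulated data with independent noise and no difference between array sets. That check does not cover shifts shared by many probe sets of an array. Symbols came from the platform annotation. The animal number's first digit, known from the labels, served as a block in alternatives only, by itself and within the array sets. Detection calls, raw scans, sequences and positions were not used here.

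Members and gene lists were chosen with earlier results of these data known. The genes named are all members, up to 3 with the smallest p in each list, and the 5 probe sets with 1 symbol most like STAR and CYP11A1; 4 others were chosen after their values were seen and are so marked. Alternatives were other filters, scalings, pseudocounts, priors, weights, blocks and covariates, each array set alone, and leaving out each animal.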

Additional observations from a re-analysis of the deposited data

Results flagged for a closer look

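Low stress animal 3 stood apart from its group for 2 probe sets. Its CYP11A1 log2 signal was 13.97, and the rest of its group ranged from 14.42 to 14.59. Its FDX1 S1 log2 signal was 14.24, and the rest ranged from 14.59 to 14.87. The gap to the nearest animal was 0.715 and 0.550 of the group's range, above Dixon's 95% critical value for 8 animals. In all, 18 groups were examined, and chance alone marks about 1 in 20. The mean of the 240 brightest other probe sets was also lowest in this animal, at 13.88, and its part in the 2 values was not tested.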

How the results depend on the processing

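The 0 of 9 count between stress groups held under all alternatives. The number of all probe sets called went from 0 to 1 with the array set as a block, alone or with quantile normalization, and to 1 with the actin ratio as covariate. Leaving out each animal gave 0 throughout, with 363 to 681 at an unadjusted p under 0.05. The stress difference changed sign, without a call, for FDX1 S1 (0.0152 with quantile normalization, alone or with the block; 0.0595 with median centring; 0.0371 with the actin ratio; 0.0563 on low-dap arrays), STAR S2 (0.0220, 0.0403, 0.0082 and 0.0324 in that order), FDXR 2 (-0.0303 with the actin ratio) and CYP11A1 (-0.0524 on high-dap arrays). Leaving out each animal gave -0.0736 to 0.0360 for FDX1 S1, -0.0863 to 0.0040 for STAR S2 and -0.0363 to 0.0598 for CYP11A1. With quantile normalization the count of correlations fell from 4 to 0, and the difference between array sets turned to 0.12 for FDXR 1, 0.0361 for FDX1 S1, 0.18 for FDX1 S2, 0.21 for STAR S1, 0.0515 for STAR S2 and 0.098 for CYP11A1. The cause was not tested. The bright mean as covariate or removed from correlations was chosen after seeing the data. The first digit of the animal number, whose meaning the labels do not give, put 1 high and 1 low stress animal in each of 8 blocks within the array sets, a block also chosen after seeing the data. It called 0 of 9 members and 0 of all probe sets. At an unadjusted p under 0.05 it gave 1321, against 919 with the array set alone as block and 460 with no block. Deviations of animals sharing a block correlated at -0.055 to 0.28. With 1 pair in each block, these values cannot decide whether the digit pairs the animals. The main comparison was left without this block. A bulk array at this number of animals limits what size of change can be seen.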
